A study of Mus musculus with 12 samples.

Results

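The genes described here are 10 genes with which the absorptive cells of the small intestine take up fat, retinol and sugar: Apoa1, Apoa4, Apob, Apoc3, Fabp1, Fabp2, Rbp2, Sis, Mttp and Lct. They are 10 of the 28793 genes measured, and they were taken by symbol after their values had been seen: they were very high in 1 sorted library and raised in 1 unsorted library. Their height in those libraries is therefore a description and was not tested. RNA was sequenced in 12 libraries of large intestinal crypt cells, all from C57BL/6 mice at the age of 3 months. The mice differed in Tert, the gene of the catalytic protein of telomerase, and the labels write the genotypes as mTert_HET (heterozygous), mTert_NULL_Generation3, mTert_NULL_Generation4 and mTert_reactivated_Generation4. They are called HET, NULL G3, NULL G4 and reactivated G4 below. The sorted set held GFP-sorted crypt cells labelled as stem/progenitor cells (HET, n = 3, and NULL G3, n = 3), and the unsorted set held crypt epithelial cells (HET, n = 2, NULL G4, n = 2, and reactivated G4, n = 2). The labels also write HET as G0 and reactivated G4 as G4tam, without spelling out what tam stands for, and they give no promoter for GFP. They call the replicates biological without naming animals, so p-values measure only the spread between these libraries.

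Enterocytes, the absorptive cells of the villus, re-esterify dietary fatty acids and pack them with apolipoproteins into chylomicrons, which leave by the lymph. Sucrase-isomaltase and lactase sit in the brush border and split disaccharides into sugars that can be taken up. This set of genes is known as a mark of the small intestine, in particular of duodenum and jejunum, and most of its members are low in mature colon.

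In the library labelled sorted NULL G3 replicate 1, 9 of 10 stem cell markers went against the label, all but Olfm4. Lgr5, a stem cell gene, was at 0.121 RPKM (reads scaled by gene length and by library total) there and at 3.40 to 4.74 in the other 5 sorted libraries. Across 8734 genes the log2 profile of this library correlated with the other sorted libraries at 0.693 to 0.717, and those correlated with each other at 0.960 or more. Results that rest on it are given with and without it. In the unsorted set Tert was at 0.459 and 0.251 RPKM in HET, at 0.00778 and 0.0377 in NULL G4, and at 0.0171 and 0.0311 in the libraries labelled reactivated G4. In sorted cells it was 0.0424, 0.0583 and 0.169 in HET and 0, 0.0787 and 0.00131 in NULL G3, so those groups overlapped. Ddx3y, a Y-linked gene, was at 4.73 to 4.78 RPKM in both unsorted HET libraries and reactivated G4 replicate 2 and at most 0.00574 in the other 3, so sex and genotype cannot be told apart between NULL G4 and HET. The sorted and unsorted sets appear to have been normalized separately, and levels set across them carry that limit.

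Short stretches of the promoters are shown for the 5 members in which the window held a match to the binding motif of HNF4 or to a half-site of HNF1, factors known to drive enterocyte genes. RefSeq windows of the 250 bases before the start site on GRCm38.p6 were found for 9 of the 10 members, all but Apoc3. Each stretch is the match with 20 bases on either side, on the strand of the gene, 5′ to 3′, and the capitals mark the match. RefSeq start sites can differ from the GENCODE gene coordinates given for the members: the windows of Rbp2 and Mttp lie inside the GENCODE gene.
Apoa4, chr9:46240642-46240690, plus strand: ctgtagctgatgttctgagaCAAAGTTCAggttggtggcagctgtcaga
Fabp2, chr3:122894915-122894963, plus strand: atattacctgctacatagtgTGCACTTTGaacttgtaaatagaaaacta
Rbp2, chr9:98490416-98490464, plus strand: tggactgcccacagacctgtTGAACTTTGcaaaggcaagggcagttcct
Fabp1, chr6:71199752-71199797, plus strand: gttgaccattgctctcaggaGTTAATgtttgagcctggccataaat
Sis, chr3:72968003-72968048, minus strand: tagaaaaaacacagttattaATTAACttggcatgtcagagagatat

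The letters CAAAGTNCA, written for HNF4 and searched on both strands, were found in 3 of the 9 windows (Apoa4, Fabp2 and Rbp2). They were found in 1.193% of 32851 windows of the same length. The HNF1 half-site GTTAAT was found in 2 of 9 windows (Fabp1 and Sis) and in 6.432% of all windows, and the full palindromic HNF1 site in 0 of 9 and in 0.03348%. The letters TTTATNG, written for CDX factors, were found in 5 of 9 windows against 9.811%, AGATAA, written for GATA factors, in 2 against 9.988%, and TATAAA in 4 against 12.37%. The CDX and TATA letters can overlap in a window, as they do in those of Apob and Rbp2. A match describes letters in these windows, and no binding was measured.

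The apolipoproteins lie on chromosome 9 (GRCm38, GENCODE M21), except Apob. Apoa1 (46228580 to 46230466), the main protein of high density lipoprotein and a chylomicron protein, Apoc3 (46232933 to 46235636, minus strand), which slows the clearance of lipoproteins, and Apoa4 (46240696 to 46243459), a chylomicron protein secreted after fat, are neighbours that do not overlap. Apoa1 was at 7.35, 5.74 and 6.65 RPKM in sorted HET and at 1558, 5.59 and 5.64 in NULL G3 replicates 1, 2 and 3. In unsorted cells it was at 6.85 and 26.4 RPKM in HET, at 2.94 and 1.99 in NULL G4 and at 9.49 and 5.25 in reactivated G4. Thus 1 of 6 libraries stood far above the rest in the sorted set, and in the unsorted set HET replicate 2 was highest and both NULL G4 libraries were lowest.

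Apoa4 was at 1.58, 0.859 and 1.07 RPKM in sorted HET and at 284, 0.902 and 1.01 in NULL G3. Its unsorted levels were 4.25 and 10.3 RPKM in HET, 2.93 and 1.75 in NULL G4 and 7.11 and 3.45 in reactivated G4. Apoc3 had the lowest level of the 10 genes in each of the 12 libraries, 0.196 to 0.362 RPKM in 5 sorted libraries and 66.8 in NULL G3 replicate 1. Unsorted Apoc3 was at 0.416 and 1.398 RPKM in HET, 0.0132 and 0.118 in NULL G4 and 0.541 and 0.163 in reactivated G4. If the smallest steps of the values are single reads, the lowest of these stood for about 1 read (0.998), so Apoc3 is at the limit of detection there and no fold is given against NULL G4.

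Apob (chromosome 12, 7977648 to 8016835), the structural protein of chylomicrons, followed another course. It was at 3.56, 2.03 and 1.72 RPKM in sorted HET and at 330, 2.99 and 4.01 in NULL G3. In unsorted cells it was at 4.66 and 11.8 RPKM in HET, at 5.38 and 5.58 in NULL G4 and at 6.22 and 8.64 in reactivated G4. It was the only member whose NULL G4 libraries lay between the HET libraries. Mttp (chromosome 3, 138089854 to 138144968, minus strand), the transfer protein that loads lipid onto the product of Apob, was at 0.901, 0.891 and 0.786 RPKM in sorted HET and at 111, 0.622 and 0.590 in NULL G3. Its unsorted levels were 1.496 and 6.21 RPKM in HET, 0.888 and 1.00 in NULL G4 and 3.96 and 1.77 in reactivated G4, so that both NULL G4 libraries were below all others.

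Among the intracellular binding proteins, Fabp1 (chromosome 6, 71199827 to 71205023), is the liver-type fatty acid binding protein. Fabp1 was at 6.92 and 19.3 RPKM in HET, at 1.06 and 1.21 in NULL G4 and at 10.6 and 3.50 in reactivated G4. In the sorted set it was at 5.01, 4.15 and 5.42 RPKM in HET and at 1056, 4.36 and 3.83 in NULL G3. The NULL G4 libraries were below the other 4 and close to each other, and the reactivated G4 libraries differed by 3.04 times. Rbp2 (chromosome 9, 98486115 to 98509781), which binds retinol in enterocytes, was at 6.26 and 18.7 RPKM in unsorted HET, 2.18 and 2.44 in NULL G4 and 10.8 and 6.51 in reactivated G4. Sorted Rbp2 was at 3.65, 2.66 and 3.12 RPKM in HET and at 614, 2.97 and 2.99 in NULL G3.

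Fabp2 (chromosome 3, 122895072 to 122899506), the intestinal fatty acid binding protein, was the most abundant member per length in each of the 12 libraries, and over all 12 its levels spanned the smallest ratio. It was at 112, 96.0 and 76.6 RPKM in sorted HET and at 2086, 71.1 and 108 in NULL G3. In unsorted cells it was at 69.2 and 197 RPKM in HET, at 59.98 and 68.3 in NULL G4 and at 68.1 and 55.5 in reactivated G4. Apart from HET replicate 2 the unsorted libraries overlapped within 55.5 to 69.2 RPKM, so NULL G4 did not stand below reactivated G4 in Fabp2, as it did in the 9 other members.

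The brush border enzymes were Sis (chromosome 3, 72888557 to 72967863, minus strand), sucrase-isomaltase, and Lct (chromosome 1, 128284756 to 128328318, minus strand), lactase. Sis was at 2.003, 1.37 and 1.67 RPKM in sorted HET and at 372, 1.60 and 1.53 in NULL G3. Its unsorted levels were 2.10 and 8.90 RPKM in HET, 0.438 and 0.463 in NULL G4 and 3.50 and 1.67 in reactivated G4. Lct was at 0.252 to 0.443 RPKM in 5 sorted libraries and at 94.9 in NULL G3 replicate 1. Unsorted Lct was at 0.770 and 2.64 RPKM in HET, 0.129 and 0.186 in NULL G4 and 0.812 and 0.580 in reactivated G4. For both enzymes the NULL G4 libraries were the lowest 2 of the unsorted set.

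**Figure D1:**
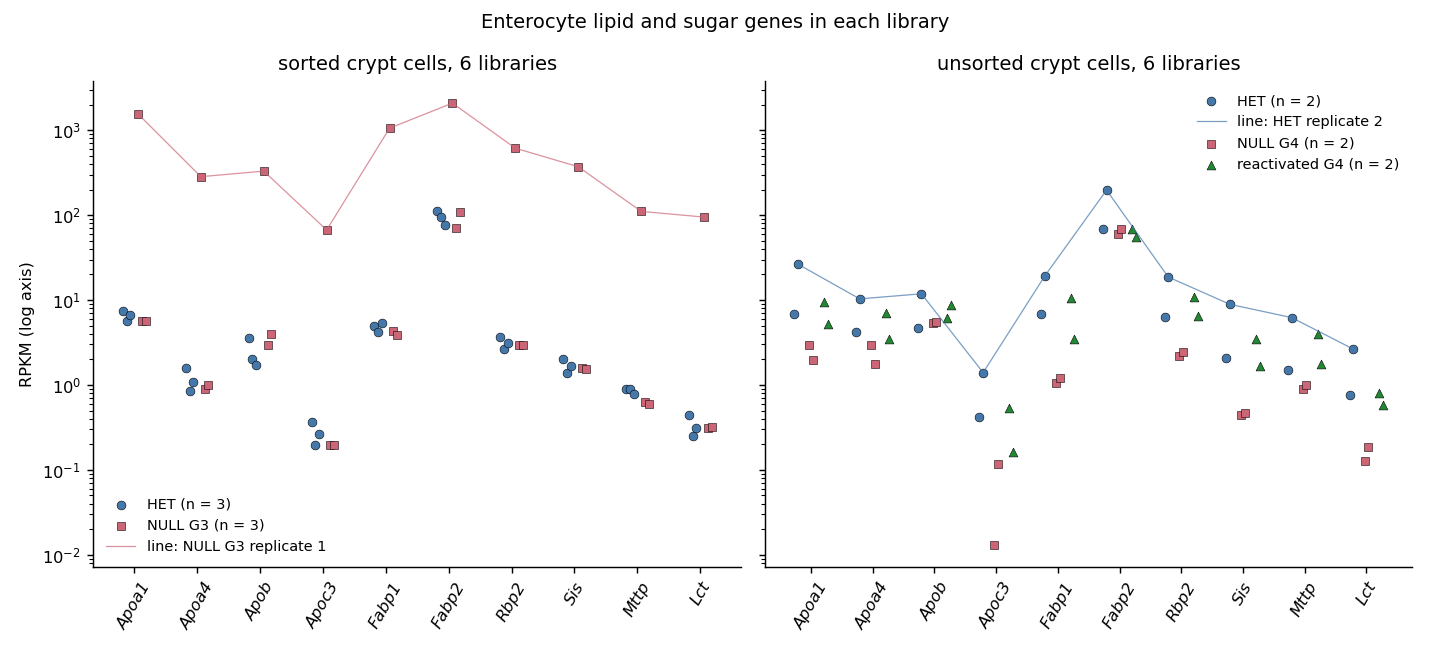
RPKM on a log axis of the 10 genes in the 6 sorted libraries (left) and the 6 unsorted libraries (right), each point 1 library, circles HET, squares NULL G3 or NULL G4, triangles reactivated G4, with a line through sorted NULL G3 replicate 1 and through unsorted HET replicate 2. Each of the 10 genes was highest in those libraries of its set, and Fabp2 was the most abundant member throughout.

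Sorted NULL G3 replicate 1 held each of the 10 genes above all of the other 5 sorted libraries, which was the case for 10.6% of the 24047 genes with a value in that set. Since the members were chosen for this, nothing is read from the count. The ratio to the median of the other 5 libraries ran from 21.7 for Fabp2 to 336 for Apoc3, with a median of 237. The 10 genes made up 1.48% of all summed RPKM in that library and 0.0215% to 0.0320% in the other 5. Mitochondrially encoded genes took 77.1% of its sum and 41.8% to 69.8% in the others, and without them the share of the 10 genes was 6.48% there and 0.0437% to 0.0712% elsewhere.

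In the sorted set the 10 genes kept nearly the same order of levels within a library whether they were high or low. Over the 10 genes, the log2 RPKM of NULL G3 replicate 1 correlated with the other 5 sorted libraries at Pearson r of 0.904 to 0.935. The order was Fabp2, Apoa1, Fabp1, Rbp2, Sis, Apob, Apoa4, Mttp, Lct and Apoc3 in that library, and in the other 5 Fabp2 and Apoa1 were first and Lct and Apoc3 last. Neighbours in between changed places: counted from the highest, Apob was at rank 3 to 5, Rbp2 at rank 4 or 5 and Fabp1 at rank 3 or 4, so the order of these 3 did not hold beyond the spread of the libraries. The unsorted libraries followed the order of NULL G3 replicate 1 less closely in part, at r of 0.908 and 0.920 in HET, 0.783 and 0.755 in NULL G4 and 0.889 and 0.835 in reactivated G4. In both NULL G4 libraries Apob was at rank 2 and Fabp1 at rank 6.

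Set as a percentage of NULL G3 replicate 1, the median of the other 5 sorted libraries was 0.298% to 0.906% for 9 of the 10 genes, and 4.603% for Fabp2. It was 0.2% to 0.6% for 7 of them: Apoa1, Apoa4, Apoc3, Fabp1, Rbp2, Sis and Lct. Other genes lay in the same range. Of 175 genes at 50 RPKM or more in NULL G3 replicate 1, 22 had a median in the other 5 under 1% of that level, 9 of them members and 13 other genes. For 7 of these members and 11 of these other genes it was 0.2% to 0.6%, and for 0 of the 22 under 0.2%. The other sorted libraries held 188 to 300 genes at 50 RPKM or more, and none of those genes had so low a level in the rest. Whether the low levels in the other 5 libraries were RNA of their own cells was not tested.

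**Figure D2:**
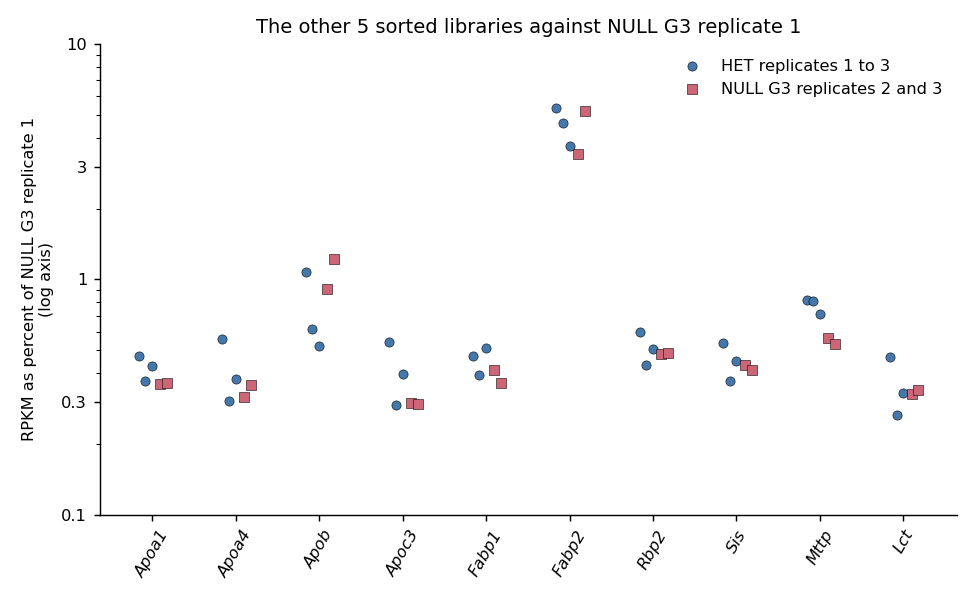
RPKM of the 10 genes in the other 5 sorted libraries as a percentage of sorted NULL G3 replicate 1, on a log axis, each point 1 library, circles HET, squares NULL G3. The median was 0.298% to 0.906% for 9 genes and 4.603% for Fabp2, and the HET and NULL G3 points overlap for all genes but Apoa1 and Mttp.

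Genes with related roles were high in the same library. Of 32 other genes of lipid absorption 27 exceeded their level in the rest of the sorted set. The median difference of the list was 2.60 on the log2(RPKM + 1) scale, where the median of all 24047 genes was -0.09. Npc1l1, the cholesterol transporter, was at 128 RPKM against at most 0.766, and Apoc2, which activates lipoprotein lipase, at 73.9 against at most 0.466. Acsl5, a fatty acid activating enzyme, was at 153 RPKM against at most 22.2. Acsl3, an enzyme of the same family, went the other way, 1.45 against 15.4 to 22.9 RPKM.

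All 13 measured genes of sugar digestion and transport exceeded their level in the rest of the sorted set, and their median log2 difference was 3.23. Slc5a1, the sodium-glucose cotransporter, was at 395 RPKM against at most 21.9, and Mgam, maltase-glucoamylase, at 261 against at most 64.8. Slc2a2, the basolateral glucose transporter, was at 66.7 RPKM against at most 0.266. All 19 genes of peptide digestion and transport were higher as well, among them Anpep, an aminopeptidase, at 1120 RPKM against at most 8.65. Of the 11 other retinoid genes 4 were above and 4 below all other sorted libraries. Aldh1a1, a retinal dehydrogenase, was at 47.1 RPKM against at most 19.7, and Isx, which represses retinoid uptake, at 5.50 against 6.03 to 14.6.

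Most genes listed as duodenal and mineral and most listed as ileal were above the other sorted libraries in this library, some of them at low levels. Of 10 duodenal and mineral genes 9 were above the other sorted libraries, among them Alpi, intestinal alkaline phosphatase, at 173 RPKM against at most 1.92, and Gata4, a factor of proximal identity, at 7.96 against at most 0.323. Of 9 genes listed as ileal 8 were above, and the median log2 differences of the lists were 1.06 (duodenal and mineral) and 1.78 (ileal). These counts include genes under 1 RPKM in this library: Cybrd1 (0.505), Pdx1 (0.570) and Trpv6 (0.126) in the first list, and Fgf15 (0.327) and Nr0b2 (0.131) in the second. In the ileal list, Guca2b, uroguanylin, was at 172 RPKM against at most 10.7. Slc51b, a subunit of the basolateral bile acid exporter, was at 42.0 RPKM against at most 5.79, and Fabp6, the ileal bile acid binding protein, at 9.62 against 1.98 to 8.91. Slc10a2, the bile acid transporter of the terminal ileum, was the exception, at 0.217 RPKM against 0.156 to 1.10.

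Markers of other cells also differed in this library, in both directions. Of 15 Paneth cell genes 12 were above the other sorted libraries, among them Defa24, a defensin, at 142 RPKM against at most 13.5, and Lyz1, lysozyme, at 127 against at most 15.7. The other 3 were below: Pla2g2a at 0.568 RPKM against 2.71 to 7.08, Nupr1 at 0.164 against 3.16 to 7.52 and Sox9 at 1.15 against 28.9 to 40.1. The summed level of all 15 was 475 RPKM against 76.9 to 165. All 10 goblet cell genes were below, summed at 99.0 RPKM against 1200 to 2638, and Muc2, the secreted mucin, was at 27.5 against 593 to 1212. Stem cell genes were below in 9 of 10 cases, summed at 17.9 RPKM against 159 to 220, and proliferation genes in 10 of 10, at 14.9 against 140 to 198. The stem cell gene Olfm4 was the exception, at 10.1 RPKM against 3.79 to 7.40. Of 22 colon region genes 14 were below and 4 above. Car1, a colonic carbonic anhydrase, was at 4.09 RPKM against 107 to 524. The median log2 differences were -3.16 (goblet), -2.45 (stem cell), -2.80 (proliferation) and -0.40 (colon region). The lists were not filtered by level. The median of all 24047 genes was -0.09, and that of the 8734 genes at RPKM 1 or more in 3 sorted libraries was -0.99. Among 10 general epithelial genes 6 were below and 2 above. The share of all genes below was not counted. Of the 10 hepatocyte genes with a sorted value above 0, 2 were above and 4 below all other sorted libraries. Their sum was 20.99 RPKM against 7.44 to 19.8, of which Cps1, a urea cycle enzyme, was 20.7. Alb, albumin, was at 0.00399 RPKM against 0.0301 to 0.423. The part of these cell types in the result was not tested. In bulk RNA more cells of a type and more RNA per cell cannot be told apart.

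**Figure D3:**
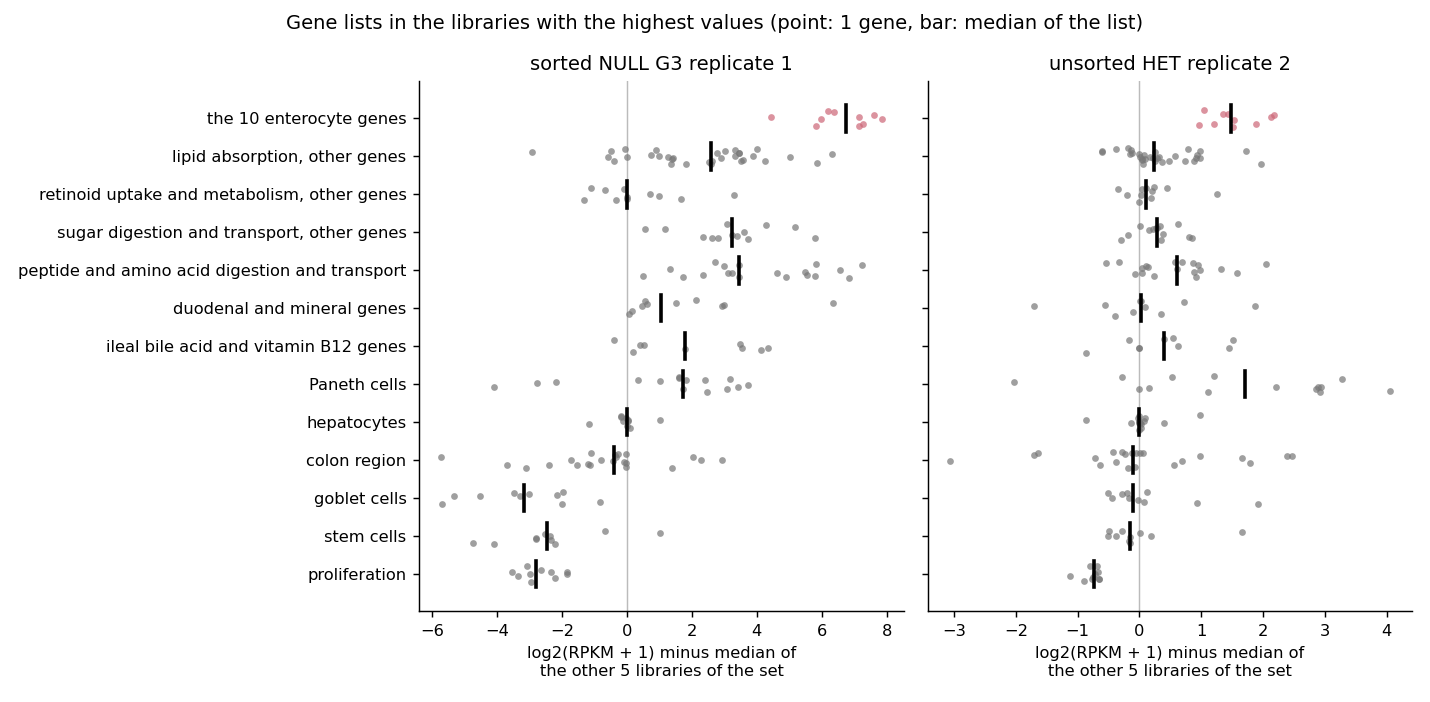
Difference of log2(RPKM + 1) from the median of the other 5 libraries of the set, for sorted NULL G3 replicate 1 (left) and unsorted HET replicate 2 (right), each point 1 gene and each bar the median of its list. The 10 enterocyte genes had medians of 6.76 and 1.48, and goblet, stem cell and proliferation genes were lower in the sorted library.

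Without NULL G3 replicate 1 the members did not pass a test between the sorted groups. Of the 10 genes, 7 were high enough to be tested (RPKM of 1 or more in at least 3 libraries), and Apoc3, Mttp and Lct were not. Differences are of log2(RPKM + 1), which understates changes of low genes. NULL G3 replicates 2 and 3 minus HET ranged from -0.20 (Fabp1, SE 0.21) to 0.42 (Apob, SE 0.26), with adjusted p of 0.868 to 0.940 by limma with Benjamini-Hochberg adjustment. The 95% intervals of the 7 differences lay within -0.75 and 0.99. In this comparison 0% of the 8670 genes tested were called higher and 0% lower by limma, and 235 had an unadjusted p under 0.05, none of them a member. NULL G3 replicate 2 also differed in sex from the libraries it was set against, with Ddx3y at 1.75 RPKM and at most 0.00596 in the other 5. Without it the 7 differences were -0.27 (Fabp1) to 0.58 (Apob), with 0 genes called by limma, and the part of sex in the result was not tested. The median difference of all genes tested was -0.19, and with each library centred on its median all 7 differences were above 0, from 0.0094 (Fabp1) to 0.62 (Apob).

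Apoa1 and Mttp, 2 of the 10 genes, had both of these NULL G3 libraries below all HET libraries, as did 10.3% of 23534 genes. None of the 10 had both above, against 3.72% of genes. Mttp was at 0.622 and 0.590 RPKM there, against 0.786 to 0.901 in HET, and Apoa1 at 5.59 and 5.64 against 5.74 to 7.35. With NULL G3 replicate 1 included, the 7 differences between group means ran from 1.42 (Fabp2) to 2.49 (Apob), which restates the choice of members. In that fit 0% of 8734 genes were called in either direction by limma, and 143 had an unadjusted p under 0.05.

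In the unsorted set, HET replicate 2 held each of the 10 genes above all other 5 libraries, as did 12.9% of 25639 genes. This too was a ground for choosing them. It exceeded HET replicate 1 by 2.43 (Apoa4) to 4.24 times (Sis), with a median of 3.17. The next highest library was exceeded by 1.37 (Apob) to 3.26 times (Lct). The 10 genes made up 0.114% of summed RPKM in HET replicate 2 and 0.0333% to 0.0515% in the other 5, and mitochondrially encoded genes took 32.5% there and 13.5% to 22.7% elsewhere.

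Related genes were raised in the same library, less uniformly than the members. Above all other unsorted libraries were 18 of 32 other lipid genes, 10 of 13 sugar genes, 12 of 19 peptide genes and 5 of 9 ileal genes, with median log2 differences of 0.24, 0.28, 0.61 and 0.40. Of the retinoid genes 4 of 11 and of the duodenal and mineral genes 3 of 10 were above, with medians of 0.11 and 0.02. Anpep was at 14.02 RPKM against 0.863 to 5.41, and Slc10a2, which had not been raised in the sorted library, at 14.5 against 2.39 to 6.60. Of 14 Paneth cell genes 10 were above and 2, Pla2g2a and Sox9, below. Defa24 was at 56.6 RPKM against 1.42 to 7.23 and Lyz1 at 18.6 against 1.34 to 2.33. Of 22 colon region genes 5 were above and 4 below, with a median of -0.10: Car1 was at 2870 RPKM against 747 to 1140 and Cyp2c55 at 442 against 61.2 to 97.2, while Hoxb13 was at 14.8 against 25.2 to 60.5 and Ly6g at 0.675 against 1.63 to 28.2. Goblet cell genes were not: 0 of 10 were above and 0 below. Blood, immune and stromal genes were above in 9 of 19 cases and below in 4 (Igj, Col1a2, Acta2 and Plin4). The haemoglobin gene Hbb-bs was at 13.6 RPKM against 0.864 to 3.64. Their part in the result was not tested.

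NULL G4 against HET asks whether loss of telomerase over generations went with other levels in the crypt. Over all 4 libraries, 9 of the 10 genes were lower in both NULL G4 libraries than in both HET libraries, all but Apob, where 11.5% of 25639 genes did so, and 0 of 10 were higher, where 43.6% did so. Nothing is read from that count, which uses the library that the members were chosen on. The differences between group means ran from -0.40 (Apob) to -2.57 (Fabp1), without a test. In that fit limma called 4.97% of 11464 genes higher and 0.576% lower.

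The test therefore set the NULL G4 libraries against HET replicate 1, whose spread was assumed to equal that of the other groups. HET replicate 1 expressed Ddx3y and the NULL G4 libraries did not, so sex and genotype cannot be told apart here either. Of the alternatives given below, a term for sex gave the largest fall of Fabp1. Only the reactivated G4 libraries set that term. Fabp1 fell by 1.89 on the log2 scale (SE 0.41, 95% interval -2.78 to -1.01, adjusted p = 0.0304 by limma with Benjamini-Hochberg adjustment). Lower calls were made for 0.494% of the 11341 genes tested and higher calls for 2.44% (56 and 277 genes, against 26 and 52 with centring on the median and 38 and 58 with quantile normalization). Fabp1 was the only 1 of the 8 members tested that was called. Apoc3 and Lct were too low to be tested. The call for Fabp1 was lost when libraries were centred on their medians (adjusted p = 0.107), under quantile normalization (0.114) and without the filter on low values (0.297), with adjusted p by limma, and the difference was between -1.57 and -3.26 over all alternatives.

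Rbp2 (-1.13, SE 0.28, adjusted p = 0.0501), Apoa1 (-1.19, SE 0.31, adjusted p = 0.0554) and Sis (-1.10, SE 0.29, adjusted p = 0.0584) had values just above the threshold in the same limma fit. Apoa4 differed by -0.68 (SE 0.33), Mttp by -0.36 (SE 0.30) and Fabp2 by -0.11 (SE 0.32), with adjusted p of 0.164, 0.374 and 0.797 by limma. Apob differed by 0.19 (SE 0.25, adjusted p = 0.561 by limma), which became -0.21 with centring on the median and -0.24 with quantile normalization. The median of all genes tested was 0.41 higher in NULL G4, so that all 8 members lay below it. A p above the threshold does not show that levels were alike, and only 1 HET library entered.

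Other genes of the same tasks did not share one course in this comparison. Of 22 other lipid genes tested 1 was called higher and 1 lower by limma: Abcg5, a sterol exporter, by 1.01 (SE 0.24, adjusted p = 0.0456), and Clps, colipase, by -1.78 (SE 0.28, adjusted p = 0.00517). None of 5 sugar genes was called in the limma fit, with 2 at an unadjusted p under 0.05, and none of 6 retinoid genes, with 0. Their median differences were 0.38 and 0.39, where the median of all genes was 0.41. Among peptide genes 1 of 15, Mep1b, a meprin subunit, was called higher, by 1.41 (SE 0.30, adjusted p = 0.0304 by limma). The ileal genes Fabp6, Slc51b and Slc10a2, 3 of 6, were called higher, by 3.51, 1.83 and 1.07 (limma adjusted p of 4.44e-05, 0.00382 and 0.0349), and the calcium genes S100g and Trpv6 2 of 6 duodenal and mineral genes, by 2.11 and 1.86 (limma adjusted p of 0.00339 and 0.0296). HET replicate 2 was named for the members, and these lists too were chosen with earlier results of these data known. With both HET libraries in the fit 0 of 6 ileal genes were called by limma, with 2 at an unadjusted p under 0.05. The list median was -0.04, where that of all genes was 0.36. Fabp6 then differed by 2.28, Slc51b by 1.25 and Slc10a2 by -0.03 (limma adjusted p of 0.0572, 0.0547 and 0.967). Abcg5, Mep1b and S100g were not called either (limma adjusted p of 0.0699, 0.193 and 0.485), while Clps and Trpv6 were called in both fits, in the same direction. With both HET libraries the median differences of the lipid, sugar, retinoid and peptide lists were 0.09, -0.26, 0.15 and -0.25. Of 8 Paneth cell genes 3 were called lower and 1 higher. Ang4, a microbicidal ribonuclease, fell by 4.87 (limma adjusted p = 4.02e-06), Itln1, an intelectin, fell by 2.10 (limma adjusted p = 0.000479), and Pla2g2a, a secreted phospholipase, rose by 2.04 (limma adjusted p = 0.00251), and these 3 were called in the same direction with both HET libraries.

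**Figure D4:**
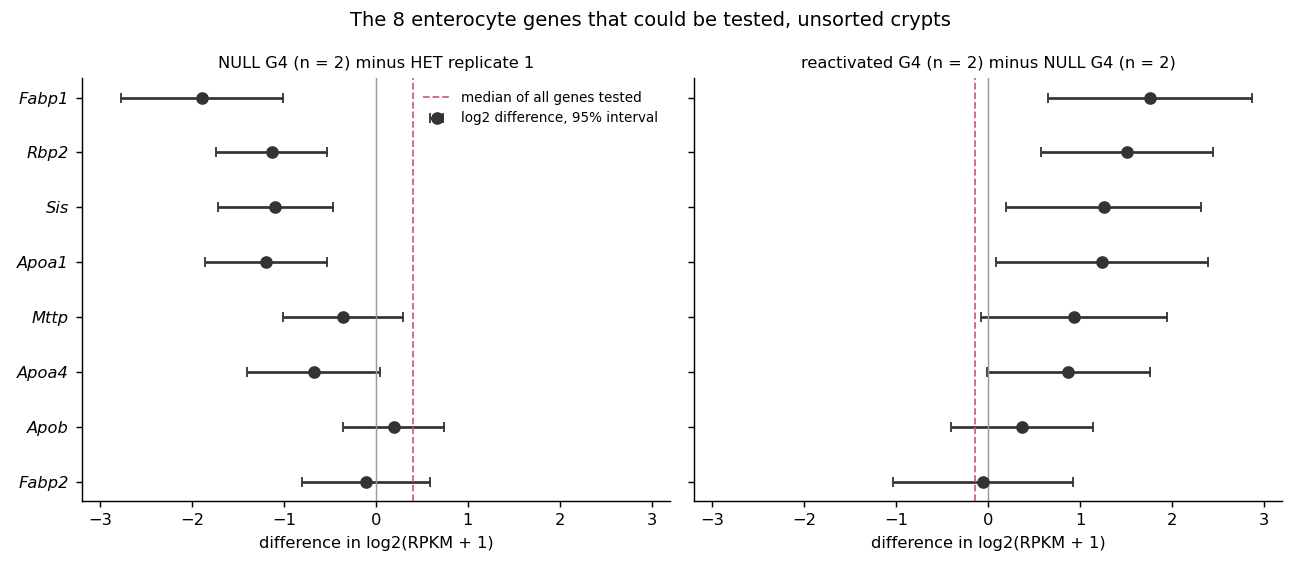
Difference in log2(RPKM + 1) with its 95% interval, before adjustment for the number of genes, for the 8 members that could be tested: NULL G4 minus unsorted HET replicate 1 (left) and reactivated G4 minus NULL G4 (right). The dashed line is the median of all genes tested (0.41 and -0.14). Fabp1, Rbp2, Sis and Apoa1 have intervals below 0 on the left and above 0 on the right, with NULL G4 shared by both panels.

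The levels compared between reactivated G4 and NULL G4 come from neither of the libraries on which the members were chosen. Their SE, intervals and p-values, however, rest on a spread shared by all unsorted groups, so HET replicate 2 enters these. For Fabp1 the SE of 0.49 is the same as for NULL G4 against HET over all libraries. Of the 10 genes 9 were higher in both reactivated G4 libraries than in both NULL G4 libraries, all but Fabp2, where 7.49% of 25639 genes were. None of the 10 was lower in both, where 20.1% of genes were. The members were, however, picked with these data in view. The differences were 1.76 for Fabp1 (SE 0.49), 1.51 for Rbp2 (SE 0.41), 1.26 for Sis (SE 0.47) and 1.24 for Apoa1 (SE 0.51). They were 0.93 for Mttp (SE 0.44), 0.87 for Apoa4 (SE 0.39), 0.37 for Apob (SE 0.34) and -0.06 for Fabp2 (SE 0.43), and that of Fabp2 was 0.09 with centring on the median and 0.11 with quantile normalization. None passed: adjusted p was 0.833 to 0.966 by limma with Benjamini-Hochberg adjustment, and 4 of the 8 had an unadjusted p under 0.05, as did 310 of 11464 genes. In this comparison limma called 0.0174% of genes higher and 0.00872% lower. Leaving out 1 of the HET libraries keeps the differences, but the spread is estimated anew and the filter on low values is applied again. In those fits Rbp2 had an adjusted p of 0.0385 and 0.0338 by limma.

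The difference was carried more by reactivated G4 replicate 1 than by replicate 2. Replicate 1 had the higher level for 9 of the 10 genes, by up to 3.32 times (Apoc3), and Apob was at 0.721 times its level in replicate 2. Without replicate 1 the difference of Fabp1 was 1.08, and without replicate 2 it was 2.44. By sex-linked expression, replicate 1 belonged with the NULL G4 libraries and replicate 2 with the HET libraries. Replicate 1 exceeded the mean of the NULL G4 libraries by 1.06 (Fabp2) to 9.35 times (Fabp1), with a median of 4.43. Replicate 2 was at 0.391 (Apoc3) to 1.85 times (Apob) HET replicate 1, with a median of 0.797. With a term for sex in the fit the difference of Fabp1 was again 2.44. Only reactivated G4 held both sexes, so its replicates 1 and 2 alone set that term. The contrast was then replicate 1 minus NULL G4, as without replicate 2, and is no separate check on sex. None of the 8 members passed there by limma (smallest adjusted p of a member 0.779).

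Between reactivated G4 and NULL G4 the medians of the related lists were near that of all genes. None of 24 other lipid genes, 8 sugar genes, 6 retinoid genes or 15 peptide genes was called by limma (1, 1, 0 and 1 at an unadjusted p under 0.05), at median differences of -0.02, 0.13, -0.03 and 0.17, where the median of all genes was -0.14 and that of the 8 members 1.08. The other genes of these lists, out of 32, 13, 11 and 19, were too low to be tested. Single genes rose as the members did: Anpep was at 5.41 and 2.65 RPKM against 0.863 and 1.09 in NULL G4, and Apoc2 at 2.52 and 1.80 against 0.831 and 0.749. Others overlapped, as Slc5a1 did at 33.4 and 28.7 RPKM against 31.1 and 35.9. Reactivated G4 against HET replicate 1 gave differences of -0.17 (Fabp2) to 0.57 (Mttp) for the members, with adjusted p of 0.396 to 0.936 by limma. There 0.979% of 11341 genes were called higher and 0.159% lower. With both HET libraries the members' differences were -0.92 to -0.03, without a test, and 1 of 10, Fabp2, was below both HET libraries in both reactivated G4 libraries, against 10.6% of 25639 genes. None of the 10 was above, against 28.1%. In that fit limma called 1.13% of 11464 genes higher and 0.148% lower.

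Across the unsorted libraries the members varied together, as a description. The correlation of log2 values between pairs of members had a median Pearson r of 0.930 over 6 libraries and 0.872 over the 5 without HET replicate 2. Apob (median r 0.135 with the other members) and Fabp2 (0.207) stood apart in those 5. In the sorted set the median r was 0.999 over 6 libraries, which rests on NULL G3 replicate 1, and 0.558 over the other 5. All pairs share the same libraries and their depth.

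Among the 8 genes whose unsorted pattern was most like the mean of the members over 6 libraries were Anpep (r of 0.995), Ces1g, a carboxylesterase (0.975), Acsf2 (0.963), Alpi (0.963), Fam102a (0.957), Tsku (0.954) and Fam189a2 (0.941). Anpep was at 3.19 and 14.02 RPKM in HET, 0.863 and 1.09 in NULL G4 and 5.41 and 2.65 in reactivated G4, the same order of libraries as Sis. Over the 6 sorted libraries the most alike were Akp3, Dnase1, Mme, Susd2, Slc43a2, Enpp7, Apoc2 and Anpep, each with r of 0.9996 or more, a value set by NULL G3 replicate 1, where Mme, a peptidase, was at 171 RPKM and Akp3, an intestinal alkaline phosphatase, at 194.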

How the data were processed

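The deposited table gives RPKM, computed by the authors, for 28793 genes in 12 columns, all of which were used. STAR 2.3.0e and the build mm10 are listed, without a role, per the submitters' processing notes. For the counting tool, the annotation and the strand setting, the answer is not given in the sources used here. Per the labels' protocols, 1 ug of total RNA entered TruSeq libraries. Steps of the low values imply 74800000 to 103000000 reads in unsorted libraries. Sorted ones showed more than 1 step size, so their depth is less certain. Identifiers matched GENCODE M21 for 97.9% of genes.

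Values were taken as log2(RPKM + 1). A gene entered a fit if 3 sorted or 2 unsorted libraries held it at RPKM 1 or above, and was tested with limma 3.58.1 (R 4.3.3, two-sided, empirical Bayes with a trend), and p-values were adjusted by Benjamini-Hochberg over all genes of the fit, with a threshold of 0.05. The sorted groups and the 3 unsorted groups were fitted separately. Contrasts with the library the members were chosen on in either group were not tested for them. Reactivated G4 against NULL G4 was tested, with that library in the shared spread. Each fit was tested on simulated data: for NULL G4 against HET replicate 1 (11341 genes), 0% of genes changed by 1 log2 unit and 33% of those changed by 2 were recovered, and for reactivated G4 against NULL G4 (11464 genes), 35% and 92%. Summaries used pandas 2.3.3 and numpy 2.4.6 under Python 3.11.15, and plots matplotlib 3.10.9.

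The members and gene lists were chosen with earlier results of these data known. Of each list, 2 to 4 genes of highest mean RPKM were to be named, with those that a count of 5 or fewer turns on. The 8 genes most like the mean of the members, at 5 RPKM or more in a library, were to be named for each set, leaving out predicted genes. A few genes that these rules name are not reported here. Npc1l1, Gata4, Lgr5, Alb, Ddx3y, Cybrd1, Pdx1, Fgf15, Nr0b2, Ctrb1 and Pnlip, outside this rule, were picked with their values known. Alternatives were a pseudocount of 0.1, no filter, quantile normalization, centring on medians, a replicate block and leaving out each library. A term for sex, for the unsorted fits only, was added after seeing the data. In the unsorted set only reactivated G4 held both sexes, so its libraries alone set this term.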

Additional observations from a re-analysis of the deposited data

How the results depend on the processing

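The replicate numbers did not pair the libraries: deviations of same-numbered libraries correlated at 0.053, -0.030 and -0.19 in the sorted set and at 0.22, -0.069 and -0.12 in the unsorted set, and no label ties them. With the replicate block, 1317 genes were called in place of 636 for NULL G4 against HET over all libraries, 264 in place of 146 for reactivated G4 against HET and 9 in place of 3 for reactivated G4 against NULL G4. Under the block, Fabp2, Rbp2 and Sis differed by 0.031, 0.036 and 0.029 between sorted groups without NULL G3 replicate 1, and Fabp1 by 0.19 for reactivated G4 against HET replicate 1.

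For NULL G4 against HET over all libraries, 21 genes were called without a filter, 237 with quantile normalization (135 higher, 102 lower, against 570 and 66), 322 with centring on the median (147 and 175) and 69 with a term for sex. Against HET replicate 1 alone the count was 333, and 20, 96, 78 and 1013 under the same settings. For reactivated G4 against NULL G4 it was 3, and 0 without a filter, 0 with quantile normalization and 6 with a term for sex. For reactivated G4 against HET it was 22, 88 (65 higher, 23 lower, against 129 and 17) and 94 (71 and 23) without a filter, with quantile normalization and with centring. Against HET replicate 1 alone it was 129, and 13, 56, 45 and 1136 without a filter, with quantile normalization, with centring and with a term for sex.

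Leaving out each library in turn gave 0 to 2 calls between sorted groups without NULL G3 replicate 1, 181 to 5742 for NULL G4 against HET, 124 to 6700 against HET replicate 1, 4 to 185 for reactivated G4 against NULL G4, 124 to 2344 for reactivated G4 against HET and 108 to 5371 against HET replicate 1. The highest counts came without a reactivated G4 library, where the spread rests on fewer libraries. That of 185 came without reactivated G4 replicate 1.

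Small differences of members changed sign. Between sorted groups without NULL G3 replicate 1 they were, with quantile normalization, 0.017 (Apoa1), 0.0079 (Fabp1), 0.13 (Fabp2), 0.15 (Rbp2) and 0.11 (Sis), and with centring 0.017 (Apoa1), 0.069 (Apoa4), 0.0094 (Fabp1), 0.11 (Fabp2), 0.16 (Rbp2) and 0.15 (Sis). Leaving out libraries there gave -0.39 to 0.20 (Fabp2), -0.14 to 0.036 (Rbp2) and -0.14 to 0.029 (Sis). Apob in NULL G4 against HET replicate 1 was -0.24 with quantile normalization and -0.21 with centring. Fabp2 in reactivated G4 against NULL G4 was 0.11, 0.091 and 0.087 with quantile normalization, centring and a term for sex, and -0.20 to 0.087 without single libraries. In reactivated G4 against HET replicate 1 the same 3 settings gave -0.29, -0.21 and -0.33 (Apoa1), -0.096, -0.060 and -0.24 (Apoa4) and -0.036, -0.094 and -0.22 (Sis), and leaving out libraries gave -0.33 to 0.42 (Apoa1), -0.24 to 0.63 (Apoa4), -0.82 to 0.55 (Fabp1) and -0.22 to 0.54 (Sis). With the term for sex, the values against HET replicate 1 repeat those without reactivated G4 replicate 1. That of Fabp2 against NULL G4 repeats the value without reactivated G4 replicate 2. The causes were not tested. Depth limits Apoc3, at about 1 read in NULL G4 replicate 1.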

Other observations

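Some transcripts of the exocrine pancreas, at low levels, were traced in 3 of the 6 unsorted libraries. These were not the ones in which the enterocyte genes were highest. Ctrb1, a chymotrypsinogen, was at 1.02 and 0.618 RPKM in NULL G4 and at 1.08 in reactivated G4 replicate 1, against at most 0.013 in the other 3 libraries. Pnlip, pancreatic lipase, was at 0.207, 0.202 and 0.390 RPKM in the same libraries and at 0 in the other 3. These were also the 3 unsorted libraries without expression of Ddx3y. Ctrb1 and Pnlip were picked from 13 measured pancreatic genes. Of the rest, Cela2a, Cela3b, Cpa1, Cpb1, Prss2, Try4, Try5 and Cel were likewise higher in those 3 libraries than in the other 3. They reached at most 0.280 RPKM (Cpa1, in reactivated G4 replicate 1). Clps, Cela1 and Rnase1 did not follow this pattern. Clps was at 9.64 and 12.1 RPKM in HET and at 2.06 to 4.41 elsewhere, and Cela1, an elastase, at 31.3 to 43.7 in all 6 libraries. Rnase1, a ribonuclease, was highest in reactivated G4 replicate 2, at 0.159 RPKM.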
